A study of Mus musculus with 12 samples.

Results

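Conventional CD4 T cells are the helper lineage of T cells without the regulatory programme. Here they were taken, from single-cell RNA sequencing of mouse tumours, as cells with at least 1 UMI (a counted transcript molecule) of the T cell receptor chains Cd3e, Cd3d or Cd3g in sum, at least 1 UMI of Cd4, and none of Foxp3 (regulatory T cells), Cd8a, Cd8b1 (CD8 T cells) or Lyz2 (myeloid cells). In all, 1157 of 50416 tumour cells assigned to a hashtag met this rule (2.29%), and they came from 39 of 43 hashed tumours. Because the cells were selected on the UMIs of these 8 genes, the levels of those genes are not given as results. The tumours were grown in mice from 5 lines. Per the authors' sample sheet, SCC31 and SCC40 are rejected lines, and SCC32, SCC35 and SCC37 are non-rejected lines. Tumours were taken at days 6, 10, 16 and 20, with day 20 present for the non-rejected lines and no assigned cell in the SCC31 tumours of day 16. Live cells were sorted from dissociated tumours, so no cell type was enriched, and the libraries came from the 10x 5' kit. The labels used here state no strain or age of the mice and no treatment. No mouse was listed again within a line, so each tumour was counted as 1 replicate.

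CD4 T cells recognise peptide on MHC class II and act mainly through other cells. Activated helper cells show CD40 ligand (Cd40lg) to dendritic cells, macrophages and B cells, and secrete cytokines that name their subsets: interferon gamma (Ifng) for Th1 cells, interleukins 4, 5 and 13 for Th2 cells, interleukin 17 for Th17 cells. In tumours they are known for licensing dendritic cells for CD8 responses and for activating macrophages, and a share of them can carry cytotoxic granules.

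The members were shallow cells: the median was 2167 UMIs and 1015 genes per cell, with 518 to 44591 UMIs. The rule therefore rested on few molecules. Exactly 1 Cd4 UMI was seen in 606 members (52.4%) and exactly 1 Cd3 UMI in 106 (9.16%). Just outside the rule lay 67 cells with 1 Lyz2 UMI, 46 with 1 Foxp3 UMI, 24 with Cd4 and Cd8 UMIs together, and 1781 Cd3 cells without Cd4, Cd8 or Foxp3 UMIs, whose median depth was 1827. CD8 T cells were taken by the same rule with a Cd8a or Cd8b1 UMI and no Cd4 or Foxp3 UMI, and regulatory T cells as members with a Foxp3 UMI. Of 87 regulatory T cells, 46 had a single Foxp3 UMI, so regulatory cells without a Foxp3 UMI cannot be told apart from members. Scrublet called 107 members (9.25%) doublets. Of the members, 1 carried a barcode that occurred in another library too. Gene comparisons used UMIs summed per tumour in the 24 tumours with at least 10 members (1078 members): 2 of SCC31, 8 of SCC32, 4 of SCC35, 3 of SCC37 and 7 of SCC40. These sums ranged from 32938 to 588068 UMIs with a median of 89093. Levels are given as CPM, a gene's UMIs as a share of all UMIs of the members of a tumour, scaled to 1e+06, and are not corrected for gene length, so they are compared between groups and not between genes.

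Markers of other cells were measured in the same sums. The 7 melanocytic genes were nearly absent, with Pmel, Mlana, Tyr, Dct, Tyrp1 and Sox10 at 0 in all 24 tumours, as was the B cell gene Ms4a1. The NK, B cell, gamma delta T cell, neutrophil, melanocytic and erythroid lists each had a median summed level of 0 CPM. The 7 mesenchymal and tumour genes summed to between 146 and 7728 CPM, median 3925, led by the metallothionein Mt1. Pooled over all members this list stood at 4127 CPM, against 11961 in cells without Ptprc, Cd3 or Cd4 UMIs. The 9 dendritic genes summed to 39.2 to 4939 CPM, led by the MHC class II chain Cd74, with Siglech at 0, and the 9 macrophage genes to 0 to 607 CPM. What these transcripts add to the results below was not tested, except where a value is given.

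Markers of activated helper cells outside the rule were common in the members, and except for Cd40lg several were common in other T cells too. A UMI of Ifng was present in 49.1% of members (exact 95% binomial interval 46.2 to 52.0, counting error only), in 26.8% of 1043 CD8 T cells of similar depth (median 2152 UMIs) and in 0.440% of 5000 cells without Ptprc, Cd3 or Cd4 UMIs (median 4819). Cd40lg was found in 32.8% of members, 1.44% of CD8 T cells and 5 of the 5000 Ptprc-negative cells. After thinning every cell to 1000 UMIs, which left out 103 members and 156 CD8 cells, the Ifng shares were 32.1% and 15.4% and the Cd40lg shares 16.8% and 0.676%. The costimulatory receptor Tnfrsf4 (OX40) was seen in 70.9% of members and 9.68% of CD8 cells, and Icos in 64.8% and 35.1%. The tissue-homing chemokine receptor Cxcr6 was seen in 56.0% and 35.7%. In regulatory T cells, whose median depth was 2511 UMIs, Tnfrsf4 (90.8%) and Icos (83.9%) were seen more often than in members and Cxcr6 less often (19.5%). In the Ptprc-negative cells these 3 receptors reached at most 0.900%.

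Transcripts of Il17a, Il4 and Il2 were rare and those of Il13 and Il21 uncommon, while Gata3, the Th2 transcription factor, was found more often. Gata3 was found in 18.2% of members, 7.09% of CD8 T cells and 1.80% of Ptprc-negative cells, and Tbx21, the Th1 factor, in 16.5%, 10.5% and 0.140%. Il17a was found in 0.173% of members, the B cell follicle receptor Cxcr5 in 0.173%, Il4 in 0.432% and Il2 in 1.12%. The cytokine Il21 was found in 4.41% of members, 0.0959% of CD8 T cells and 0 of 5000 Ptprc-negative cells. The memory factor Tcf7 was found in 3.37% of members and 2.84% of the deeper Ptprc-negative cells, and in 1.23% and 0.470% at 1000 UMIs per cell. The Th2 cytokine Il13 was present in 4.93% of members (interval 3.75 to 6.34) and Csf2, which encodes GM-CSF, in 15.3%. For Isg15 (62.6% of members, 61.0% of Ptprc-negative cells), Ccl5 (32.2% and 27.0%) and Areg (29.3% and 45.5%) the Ptprc-negative cells carried a comparable or higher share, so free RNA cannot be told apart from expression in these shares. At 1000 UMIs per cell the Isg15 shares were 45.1% and 33.1%, those of Ccl5 22.7% and 14.5%, and those of Areg 18.8% and 24.5%.

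The promoters of Csf2 and Il13 are shown because these cytokine genes were seen in members and hardly in CD8 T cells (1.15% and 0.192%). Both lie on the minus strand of chromosome 11 and are given 5′ to 3′ from RefSeq (GRCm38.p6), from 250 bases before to 50 after the start of the gene. Capitals mark each GGAAA on either strand, the core recognised by NFAT factors.

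Csf2, chr11:54249850-54250149: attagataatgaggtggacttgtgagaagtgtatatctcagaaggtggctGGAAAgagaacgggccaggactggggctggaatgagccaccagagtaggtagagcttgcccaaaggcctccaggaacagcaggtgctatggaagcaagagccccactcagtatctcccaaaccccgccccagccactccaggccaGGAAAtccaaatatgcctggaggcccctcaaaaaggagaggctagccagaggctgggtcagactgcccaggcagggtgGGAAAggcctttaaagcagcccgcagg

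Il13, chr11:53634653-53634952: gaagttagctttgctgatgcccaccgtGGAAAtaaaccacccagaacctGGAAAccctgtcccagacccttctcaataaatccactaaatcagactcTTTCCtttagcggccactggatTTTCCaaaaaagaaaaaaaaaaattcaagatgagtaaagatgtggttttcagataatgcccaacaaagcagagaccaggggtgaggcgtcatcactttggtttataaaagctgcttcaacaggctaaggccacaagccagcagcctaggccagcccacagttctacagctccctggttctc

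This core occurred 3 times in the Csf2 window and 4 times in the Il13 window. Any match at all was found in 61.3% of 32851 promoter windows of that length. No background is given for the number of matches per window. The AP-1 motif was in neither window and in 7.81% of all windows. The GATA core AGATAA was found in each window and in 11.2% of all windows. It was absent from the windows of Ifng, Tnfrsf4, Ccl1 and Gzmb, which were searched too. Both strands were searched, and a match describes letters, not binding.

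Cytokine UMIs coincided in the same cells, in which depth also differed. Of 57 Il13-positive members, 71.9% had an Ifng UMI, against 47.9% of the others, with median depths of 4451 and 2088.5 UMIs. Of 177 Csf2-positive members 65.0% had an Ifng UMI, against 46.2% of the rest (median depths 2919 and 2065.5), and 17.5% had an Il13 UMI, against 2.65%. Members with and without Cd40lg had closer depths, 2389 and 2012, and Ifng shares of 58.6% and 44.5%. The part of depth in these shares was not tested.

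Across the 24 tumours the core genes differed in how evenly they were found. Tnfrsf4 was detected in every tumour, between 332 and 1237 CPM with a median of 645. Icos ranged from 166 to 763 with a median of 331. Nkg7, a granule protein gene, ranged from 99.8 to 1415 with a median of 718. Each of these was above 0 in all 24 tumours, as were Cd40lg (31.2 to 204, median 124), Cxcr6 (28.5 to 479, median 246), the inhibitory receptors Pdcd1 (18.4 to 327, median 138) and Lag3 (18.2 to 360, median 130), and the transcription factor Ikzf2 (9.04 to 364, median 54.5). Ifng had the widest range, from 0 in the SCC35 tumour of day 20 to 3509 CPM in the SCC35 tumour of day 6, with a median of 582. Il2 was at 0 in 16 tumours, Gzmk in 12, Il21 in 8 and Tcf7 in 7. Isg15, an interferon-induced gene, separated lines more than days: SCC32 tumours held 805 to 2004 CPM, SCC40 696 to 1283, SCC37 212 to 1085, SCC35 39.2 to 304 and SCC31 201 to 237. SCC32 and SCC35 did not overlap in Isg15, and SCC32, SCC40 and SCC37 did. No contrast between single lines was tested.

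**Figure D1:**
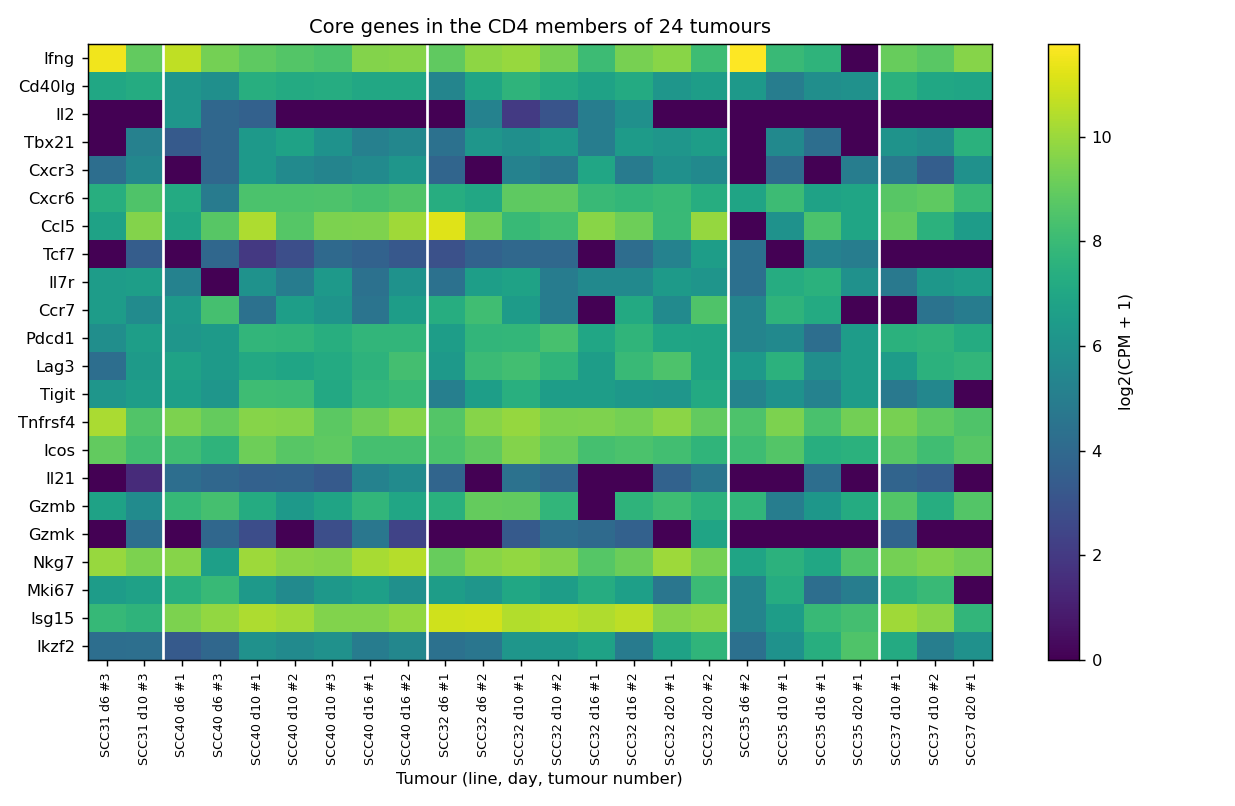
Levels of the core genes, log2(CPM + 1), in the summed conventional CD4 T cells of 24 tumours, ordered by line, day and tumour number, with white lines between cell lines. Tnfrsf4, Icos, Nkg7 and Cxcr6 are above 0 in every column, with lowest values of 99.8 CPM for Nkg7 and 28.5 for Cxcr6. Il2 and Gzmk are at 0 in 12 or more columns. Isg15 has its lowest line means in SCC31 and SCC35, whose values the SCC37 tumour of day 20 (212 CPM) overlaps.

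The share of conventional CD4 T cells was highest at day 10 in SCC32 and SCC37 and was as high at day 16 as at day 10 in SCC40. In SCC32 they made up 1.48% and 2.03% of assigned cells in the tumours of day 6, 15.6% and 8.17% at day 10, 1.61% and 2.87% at day 16, and 2.50% and 1.16% at day 20. SCC37 tumours held 0.645% and 0.217% at day 6, 3.29% and 3.37% at day 10, and 1.12% and 0.565% at day 20. SCC40 tumours held 1.39%, 0.283% and 0.912% at day 6, 5.01%, 3.96% and 7.04% at day 10, and 6.46% and 4.08% at day 16. Thus the SCC40 tumours of days 10 and 16 overlapped, and all 5 lay above the 3 tumours of day 6. SCC35 stayed low throughout, with line means of 0.576% ± 0.130 (SD, n = 3) at day 6, 0.710% ± 0.332 (n = 3) at day 10 and 0.390% ± 0.278 (n = 3) at day 20. In SCC31 members were 0 of 87 and 1 of 76 cells (1.32%) in 2 day 6 tumours of its own library. The share was 0.905% in the day 6 tumour of the mix library (the library that pooled tumours of SCC31, SCC35 and SCC40) and 15.3% in its day 10 tumour, and 2.96% in a day 10 tumour of the SCC31 library.

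Over all 5 lines the last day differed from the first by 2.62 percentage points (two-sided exact permutation test within lines, p = 0.00344, adjusted over 2 tests 0.00689). This mean rested on the rejected lines, whose last days were 10 and 16. The differences were 8.38 points in SCC31 and 4.41 in SCC40, and 0.0700, -0.186 and 0.409 points in SCC32, SCC35 and SCC37. It did not pass the exact permutation test on log2 shares (1.10, adjusted p = 0.0722) or without the mix library (1.37 points, adjusted p = 0.0880). Against day 10, a comparison chosen after the data were seen, the last day was 3.23 points lower (-3.23, exact permutation, adjusted p = 0.0217, 4 lines). That difference was -10.0 points in SCC32, -0.320 in SCC35, -2.49 in SCC37 and -0.0672 in SCC40.

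Among T cells (members, CD8 and regulatory T cells together) the helper share was 72.9% ± 4.26 (n = 2) in SCC32 at day 10 and 22.1% ± 14.2 (n = 2) at day 20. Cd3 cells without Cd4, Cd8 or Foxp3 UMIs were not counted, so the share depends on marker detection. At day 10 those cells numbered 172 in SCC32, beside 232 members, and 334 in SCC40, beside 268. The helper share was 60.5% ± 9.33 (n = 3) and 14.1% ± 8.36 (n = 3) in SCC35, and 71.0% ± 4.89 (n = 2) and 14.9% ± 5.23 (n = 2) in SCC37. SCC40 had 71.6% ± 12.2 (n = 3) at day 10, and 65.7% and 45.9% in its tumours of day 16. In each non-rejected line every tumour of day 20 lay below every tumour of day 10, while the SCC40 tumours of days 10 and 16 overlapped (63.3% to 85.6% and 45.9% to 65.7%). The mean over these 4 lines was -42.3 points, in a comparison chosen after the data were seen (exact permutation, adjusted p = 0.00111). At day 16, where both kinds of line were sampled, the share was 43.9% ± 16.7 in SCC32, 16.6% ± 0.161 in SCC35 and 18.4% ± 4.27 in SCC37 (n = 2 each). Last against first day, the planned comparison, gave -16.2 points (exact permutation, adjusted p = 0.119) over 4 lines, since the SCC37 tumours of day 6 had under 10 T cells. Without the day 6 tumour of SCC31 it was -24.5 points with an adjusted p of 0.0306. Both parts of this share moved. In SCC32 there were 232 members and 55 CD8 T cells among 2032 assigned cells at day 10, and 39 and 146 among 2165 at day 20. In SCC37 there were 59 and 20 among 1769, then 20 and 114 among 2578. In SCC35, where members were few throughout, there were 35 and 19 among 4854, then 20 and 96 among 4896.

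**Figure D2:**
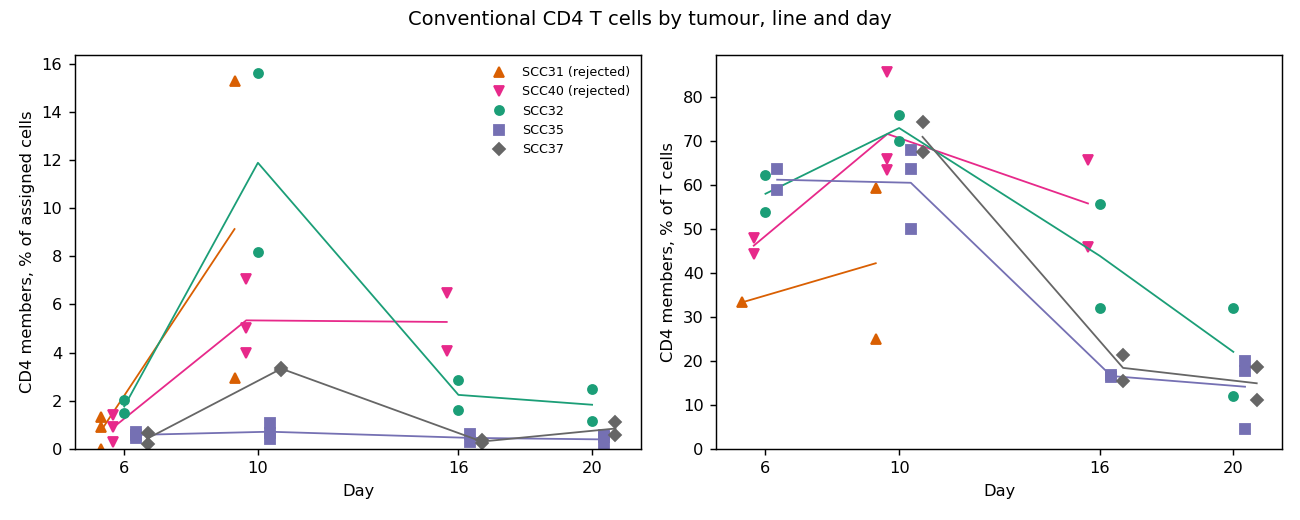
Conventional CD4 T cells of each tumour as a percentage of assigned cells (left) and of T cells (right) by day, with points for tumours, shifted sideways by line, and lines through the means. T cells are members, CD8 and regulatory T cells, without Cd3 cells that lack Cd4, Cd8 and Foxp3 UMIs. In SCC32 the share of assigned cells runs from 11.9% at day 10 to 1.83% at day 20, and in SCC40 it is 5.34% at day 10 and 5.27% at day 16.

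From day 6 to day 10 Cxcr6, Ctsw, the receptor chain Trac and the inhibitory receptors Pdcd1 and Tigit rose in the helper cells, and Fabp5, Gbp2, Hsp90aa1 and Npm1 fell. Ifng, Il13 and Lta fell too. The calls of Pdcd1, Tigit, Ifng, Il13 and Lta were lost without cells over 10000 UMIs. Across line-adjusted tumours (6 of day 6, 9 of day 10), 176 of 2630 genes tested were called by edgeR's quasi-likelihood test at a Benjamini-Hochberg adjusted p of 0.05 (6.69%), 97 higher (3.69%) and 79 lower at day 10, and the median change of all genes was 0.0141 on the log2 scale. SCC37 had no day 6 tumour with enough members. Its 2 tumours of day 10 are in the day 10 ranges and medians without a day 6 counterpart. Of the called genes 4 were genes of the rule and are not described. Depth moved with day: 16.8% of members had over 10000 UMIs at day 6, 5.59% at day 10, 12.3% at day 16 and 3.80% at day 20. Without those cells 17 genes were called, so the count depends on them; 4 of 22 named genes kept their call under every alternative run, namely Cxcr6, Ctsw, Fabp5 and Gbp2.

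Cxcr6 ranged from 28.5 to 164 CPM at day 6 (median 138) and from 265 to 479 at day 10 (median 372). The days did not overlap, and the change was 1.58 ± 0.24 on the log2 scale (SE; adjusted p = 0.00149). Ctsw, a cathepsin of cytotoxic lymphocytes, went from 18.1 to 155 CPM (median 47.4) to 95.4 to 416 (median 156), a log2 change of 1.82 ± 0.34 (adjusted p = 0.00253), with overlap between the days. Fabp5, a fatty acid binding protein, went from 78.4 to 684 CPM (median 316) to at most 209 (median 63.6), and fell by 2.41 ± 0.40 (adjusted p = 0.00149). Gbp2, an interferon-induced GTPase, ranged from 39.2 to 1097 CPM and then from 15.6 to 205, and fell by 1.83 ± 0.33 (adjusted p = 0.00253). The highest Gbp2 values were those of the SCC32 tumours at day 6, 974 and 1097 CPM. In CD8 T cells of tumours with at least 10 cells of each class, Cxcr6 was 9.42 to 104 CPM at day 6 and 48.2 to 181 at day 10. Gbp2 was 130 to 908 and 16.3 to 187 CPM there, Ctsw 115 to 247 and 143 to 397, and Fabp5 0 to 419 and 22.7 to 144. Day differences in CD8 cells were not tested.

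The receptor complex list had 12 of 12 genes tested, of which Trac (log2 change 1.17 ± 0.20, adjusted p = 0.00149) and Trbc2 (0.72 ± 0.21) rose and none fell, with a list median of 0.625. Trac, the constant region of the alpha chain, went from a median of 160 CPM (118 to 239) to 344 (199 to 533). With a stricter hashtag rule of 4 times the next hashtag its change was 0.71 (adjusted p = 0.211). Of 5 inhibitory receptor genes tested, Pdcd1 (0.98 ± 0.27) and Tigit (1.16 ± 0.32) rose, and of 11 costimulation genes Cd28 (0.92 ± 0.25) rose. Of 12 alternatives, the Pdcd1 call was lost under 5 and the Tigit call under 3, and each was lost on leaving out any of 6 tumours. Cd40lg rose by 0.93 ± 0.26 (adjusted p = 0.0313), from 39.7 to 127 CPM at day 6 to 31.2 to 204 at day 10. This call was lost under 6 of 12 alternatives and on leaving out any of 6 of the 24 tumours. Of the 10 migration genes tested Ccr2 (1.33) and Itgb1 (0.87), an integrin chain, rose. Of 5 genes linked to regulatory T cells, Ikzf2 (1.93 ± 0.51) and Ccr8 (2.10 ± 0.49) rose, from medians of 18.9 and 16.2 CPM to 60.7 and 57.5. The protease inhibitor Serpinb1a had the largest rise by the naming rule, 2.65 ± 0.59, from a median of 29.7 CPM to 197. The call of Serpinb1a was lost without cells over 10000 UMIs, although its change was then 2.37 (adjusted p = 0.166). Pglyrp1 (1.98) and Mxd4 (1.89), a repressor of the Myc network, completed the 5 largest rises.

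Among genes that fell was Npm1, a nucleolar chaperone of ribosome assembly, by 1.10 ± 0.18 (edgeR adjusted p = 0.00149), with Srm, the spermidine synthase (-1.41, adjusted p = 0.0114), and Hspd1, a mitochondrial chaperone (-0.97, adjusted p = 0.0196); these 3 were chosen after their values were seen. The chaperone Hsp90aa1, 1 of 9 stress genes tested, fell by 0.93 ± 0.17. No cell cycle gene (11 tested, list median -0.566) and no naive or memory gene (5 tested) passed the test. The interferon list had 1 of 14 genes called, Gbp2.

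Cytokine genes were high in single tumours at day 6. Ifng ranged from 477 to 3509 CPM at day 6 (median 1249) and from 249 to 991 at day 10 (median 468), a change of -1.65 ± 0.47 (adjusted p = 0.0359). The 2 highest values were the SCC35 tumour, 3509 CPM from 10 members, and the SCC31 tumour, 2911 CPM from 11 members, and the days overlapped. In SCC32, the line whose day 6 tumours held over 20 members each, Ifng was 477 and 871 CPM at day 6 and 991 and 657 at day 10. In SCC40 it was 1627 and 642 CPM at day 6 and 468, 394 and 342 at day 10, without overlap, and the single SCC31 and SCC35 tumours of day 10 held 497 and 249. With at least 20 cells per tumour, which leaves those SCC32 tumours as the only ones of day 6, the change was 0.08 (adjusted p = 0.965). Without cells over 10000 UMIs it was -0.53 (adjusted p = 0.645). Il13 was 0 to 1157 CPM at day 6 and 0 to 84.8 at day 10 (-2.78 ± 0.73, adjusted p = 0.0220), and the SCC35 tumour held the highest value. Lta, which encodes lymphotoxin alpha, fell by 2.48 ± 0.69 (adjusted p = 0.0293). DESeq2 did not call Il13 and Lta, and without cells over 10000 UMIs neither was called. Fcer1g, an Fc receptor chain of myeloid cells, fell by 2.33 ± 0.43, and lost its call without cells bearing UMIs of other lineages (-1.56, adjusted p = 0.0625). The macrophage list moved with it, from a median of 215 CPM (0 to 596) at day 6 to 87.7 (28.9 to 334) at day 10, and the dendritic list from 2069 (39.2 to 4939) to 839 (260 to 3391).

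**Figure D3:**
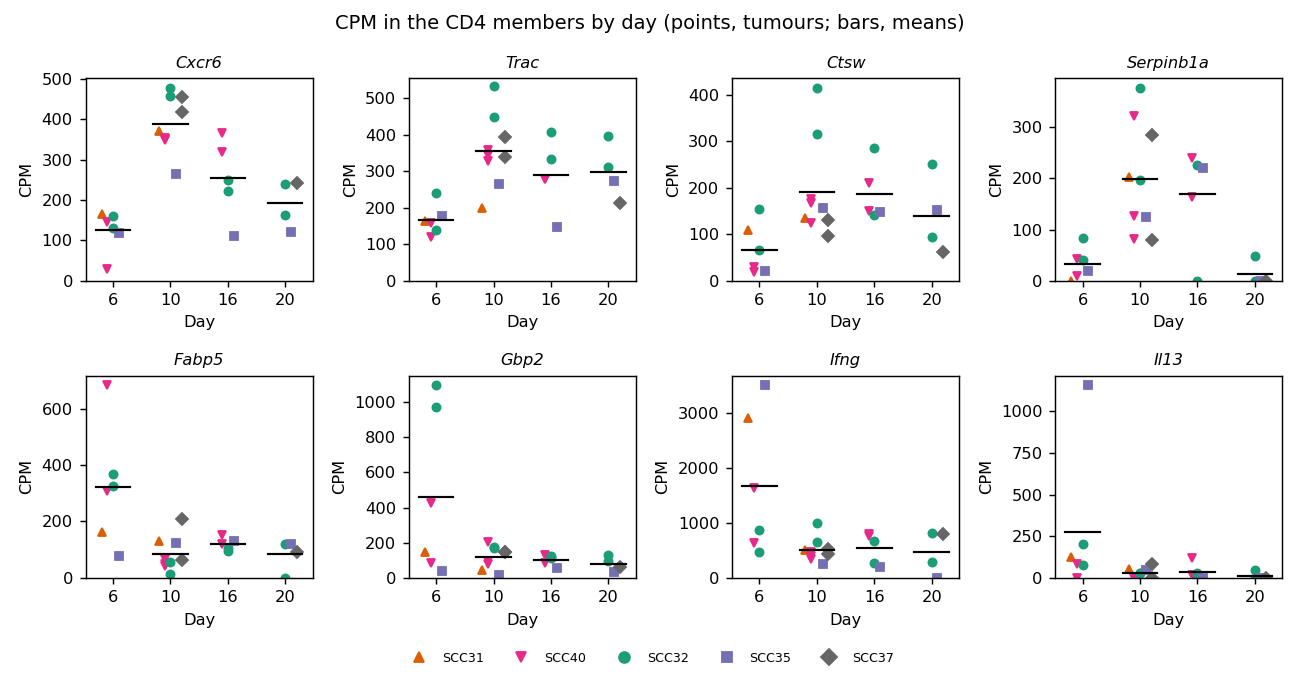
CPM of 8 genes in the summed conventional CD4 T cells of each tumour by day, with points for tumours marked by line and bars for the mean of each day. Cxcr6 lies at 28.5 to 164 at day 6 and 265 to 479 at day 10 without overlap, while the day 6 mean of Ifng and Il13 is carried by 1 or 2 tumours.

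After day 10 few changes passed the test. The mean of days 16 and 20 against day 10 gave 6 called genes of 2630 (0.228%), 0 higher (0%) and 6 lower (0.228%), and 224 genes at an unadjusted p under 0.05; DESeq2 called 10. Plac8 fell by 2.31 ± 0.37 (adjusted p = 0.00353), from 113 to 1007 CPM at day 10 (median 239) to 0 to 172 (median 68.7). Ly6c2, a surface protein of effector T cells and monocytes, fell by 1.79 ± 0.34, from a median of 392 to 108 CPM. Crem (-1.19), Dgat1 (-1.05), Stk17b (-0.94) and Pim1 (-0.88), a survival kinase, were the others. None of the 6 was called without the members that Scrublet marked, with the stricter cell filter, or without members with UMIs of other lineages, where 0 genes passed. None of the 15 lists had a called gene: Ifng changed by 0.09 ± 0.41 (adjusted p = 0.978), Pdcd1 by -0.45 ± 0.23 and Tigit by -0.25 ± 0.29. Cxcr6 ranged from 111 to 366 CPM at day 16 and from 121 to 243 at day 20. Whether the days differed between lines was tested by the line by day interaction, which called 3 of 3529 genes (0.0850%).

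In SCC40, the rejected line with most helper cells, these cells were compared with the mean of the 3 non-rejected lines. They carried more Tigit, Sh2d1a and Ctla4 and less Il2ra and Tnfrsf9 than that mean. Of 2630 genes, 268 were called (10.2%), 180 higher (6.84%) and 88 lower (3.35%) in SCC40. Tigit, an inhibitory receptor, ranged from 71.3 to 280 CPM in 7 SCC40 tumours (median 214) and from 0 to 171 in 15 tumours of the other 3 lines (median 72.1), a log2 difference of 1.93 ± 0.29 (adjusted p = 2.45e-04). Sh2d1a, an adaptor of helper cell contacts with B cells, ranged from 42.3 to 118 CPM against 0 to 140 (1.53 ± 0.34, adjusted p = 0.00519). Its SCC32 values, 46.4 to 140 CPM, overlapped those of SCC40, and its low values came from SCC35 (0 to 19.6). Il2ra, the high-affinity interleukin 2 receptor chain, ranged from 24.2 to 90.4 CPM in SCC40 (median 42.8) and 39.2 to 254 in the others (median 129), a difference of -1.56 ± 0.33 (adjusted p = 0.00375). Tnfrsf9, the costimulatory receptor 4-1BB, ranged from 66.5 to 240 against 93.7 to 588 CPM (-1.40 ± 0.31, adjusted p = 0.00547). All groups overlapped. Tigit, Il2ra and Tnfrsf9, with Mettl23, Rgs10, Rnaset2b and Ptgs2, kept their call under every alternative run. Sh2d1a kept it wherever it was tested, but fell below the low count filter in 12 of 24 omissions and 1 of 11 alternatives.

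By list, 1 of 11 costimulation genes was higher (Cd28, 0.79) and 2 lower. Of 5 inhibitory receptor genes 2 were higher (Tigit and Ctla4, 0.81 ± 0.22), and of 4 cytotoxic genes 1 (Nkg7, 1.13 ± 0.29). Mean Nkg7 was 885 CPM in SCC40, 710 in SCC32, 659 in SCC37 and 200 in SCC35. Ctla4 was 157 to 491 CPM in SCC40, 191 to 348 in SCC32, 30.3 to 301 in SCC37 and 58.8 to 187 in SCC35. Cd28 was 81.4 to 321 CPM in SCC40, 111 to 269 in SCC32, 91.0 to 209 in SCC37 and 46.8 to 152 in SCC35. No Th1, receptor complex, migration, Th2 or cell cycle gene was called: Ifng differed by -0.09 ± 0.43 (adjusted p = 0.918) and Pdcd1 by 0.57 ± 0.24 (adjusted p = 0.132). Mesenchymal transcripts differed as well. Col1a1 was 0 to 45.4 CPM in SCC40 and 0 to 379 in the other lines (-3.08 ± 0.55), Mgp differed by -2.19 ± 0.49 and Ccn1 by -2.07 ± 0.45. With the stricter hashtag rule Col1a1 differed by -1.55 (adjusted p = 0.519) and Mgp by -1.25 (adjusted p = 0.453). Ptgs2, the inducible cyclooxygenase, had 3 UMIs in SCC40 and 128 in the other lines, per UMI 46.6 times more there (15.6 to 229, counting error only). The summed mesenchymal and tumour list was 2160 to 4977 CPM in SCC40, 2352 to 7378 in SCC32, 4646 to 7728 in SCC35 and 2236 to 7189 in SCC37. Library composition moved with line too. Gm42418 and AY036118, which overlap ribosomal RNA repeats, took a median of 1.83% of UMIs in SCC40, 3.27% in SCC32, 4.37% in SCC35 and 7.37% in SCC37, and ribosomal protein genes 22.0%, 18.9%, 14.2% and 15.5%. Each line otherwise had a library of its own, so outside the mix library a difference between lines cannot be told apart from one between libraries. Without the mix library 440 genes were called.

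**Figure D4:**
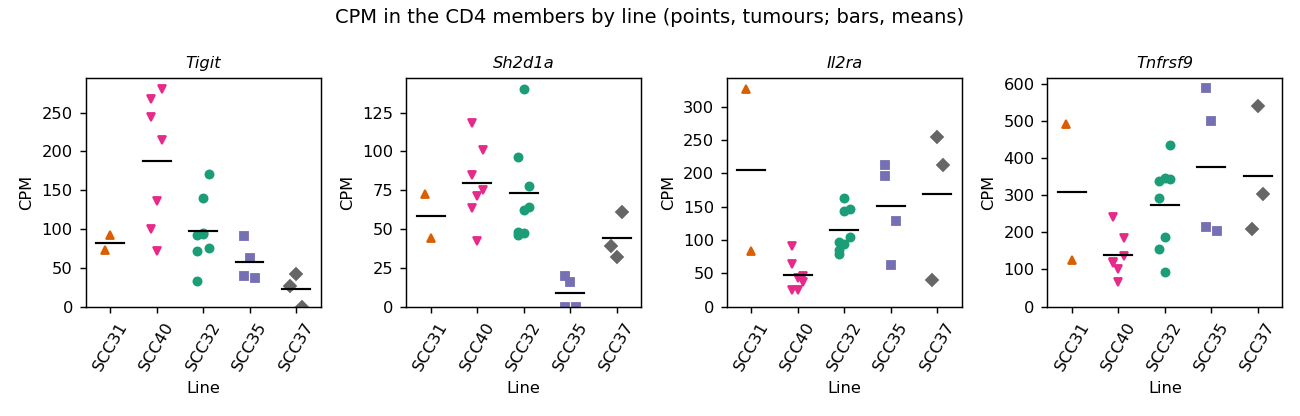
CPM of Tigit, Sh2d1a, Il2ra and Tnfrsf9 in the summed conventional CD4 T cells by line, with points for tumours of all days and bars for line means. SCC40 tumours sit at 71.3 to 280 for Tigit, overlapping the other lines, and at 24.2 to 90.4 for Il2ra, toward the low end of the other lines.

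SCC31 had 2 tumours with enough members, both in the mix library, so its own tumours cannot tell line from library. Its comparison is thin. Against the non-rejected lines 64 of 2630 genes were called (2.43%), 52 higher (1.98%) and 12 lower (0.456%), with 71 higher and 35 lower by DESeq2. At an unadjusted p under 0.05 there were 375. With tumour number as a further term, 8 genes were called, 6 higher and 2 lower. Number 3 stood for the mix library in that fit, and SCC40 alone had fitted tumours in both kinds of library. Without the day 6 tumour edgeR called none, and likewise with 1 Lyz2 UMI allowed. No gene of the 15 lists was called. The 14 interferon genes tested had a median difference of -1.15, against -0.0235 for all genes, and Isg15 differed by -1.52 ± 0.43 (adjusted p = 0.0629). The difference is from a mean of lines that differ: mean Isg15 was 219 CPM in SCC31, 169 in SCC35, 719 in SCC37 and 1426 in SCC32. The non-rejected line SCC35 was thus as low as SCC31. Of called interferon-related genes outside the list, Ifit2 had 3 UMIs in SCC31 against 135 in the other lines and Ifi204 differed by -1.74 ± 0.44. Higher genes by the naming rule were mitochondrial import genes Tomm5 (1.61 ± 0.31) and Tomm22 (1.19), with Nme1 (1.25), Mettl23 (1.39) and Gng10. Ribosomal protein genes made up 22.6% and 30.7% of UMIs in the 2 SCC31 tumours.

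Against CD8 T cells of the same tumours, conventional CD4 T cells had higher Cd40lg, Csf2, Ifng and Tnfrsf4 and lower granzyme, perforin and cell cycle transcripts. In 21 tumours with at least 10 cells of each class, and with the 8 genes of the rule left out, 415 of 3804 genes were called (10.9%), 204 higher (5.36%) and 211 lower (5.55%) in CD4 cells. This was the most stable comparison: 48 of 61 named genes were tested and kept their call under every alternative run, and leaving out any tumour gave 364 to 478 called genes.

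Cd40lg ranged from 39.7 to 204 CPM in CD4 cells (median 127) and from 0 to 28.9 in CD8 cells (median 0). The classes did not overlap, CD4 cells were higher in 21 of 21 tumours, and the log2 difference was 4.33 ± 0.29 (adjusted p = 4.99e-13). Tnfrsf4 ranged from 332 to 1237 against 0 to 169 CPM (3.66 ± 0.23, adjusted p = 1.82e-13), higher in 21 of 21 tumours. Csf2 ranged from 0 to 549 CPM (median 170) against 0 to 48.2 (median 0), a difference of 5.10 ± 0.32 (adjusted p = 2.65e-13), higher in 20 tumours. Ifng ranged from 0 to 2911 CPM (median 642) against 0 to 296 (median 110), a difference of 2.17 ± 0.26 (adjusted p = 1.68e-07), also higher in 20 of 21. Il13 had 146 UMIs in CD4 cells and 2 in CD8 cells, a ratio per UMI of 59.2 (16.1 to 494, counting error only). DESeq2 did not call Il13. Penk, the enkephalin precursor (4.42 ± 0.32), Ccl1, the ligand of Ccr8 (3.94 ± 0.49), and Ccr8 itself (4.56 ± 0.36, 309 UMIs against 7) were also higher. Ccl1 ranged from 0 to 2520 CPM in CD4 cells.

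By list, 7 of 11 Th1 and effector cytokine genes were higher, among them the Th1 factor Tbx21 (0.87 ± 0.24) and the receptors Il12rb2 (1.31) and Il18r1 (0.71), and 1 was lower, the chemokine Ccl5 (-2.48 ± 0.24). Of 11 costimulation genes 6 were higher and none lower, with Tnfrsf18 at 1.75 ± 0.14 and Icos at 1.34 ± 0.14, each higher in 21 of 21 tumours. Of 4 Th2 genes 3 were higher: Gata3 (1.60 ± 0.25), Il13 and Areg (1.25), the last found in 45.5% of Ptprc-negative cells as well. Of 3 follicular helper genes Maf (2.58 ± 0.23) and Izumo1r (1.76) were higher, though both were lower than in regulatory T cells (below). Of 5 genes linked to regulatory T cells, Ccr8, Nrp1 and Capg were higher and none lower. Of 8 inhibitory receptor genes Ctla4 (1.18), Lag3 (0.83) and Tigit (0.76) were higher and Cd160 lower (-3.36), and Pdcd1 did not pass (0.62 ± 0.24, adjusted p = 0.105). Of 12 receptor complex genes 5 were higher, such as Cd5 (1.42) and Cd247 (1.02). The median over all genes was -0.00546, against 0.874 for the Th1 list and 0.422 for costimulation.

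Of 9 cytotoxic genes 8 were lower in CD4 cells and none higher, with a list median of -2.08. Granzyme B (Gzmb) ranged from 0 to 513 CPM in CD4 cells (median 179) and from 509 to 2363 in CD8 cells (median 1027). The difference was -2.65 ± 0.23 (adjusted p = 2.42e-10), and CD4 cells were lower in 21 of 21 tumours. Gzma (-4.10), Gzmk (-3.16), the pore-forming Prf1 (-2.97), the NK receptors Klrd1 (-2.08) and Klrk1 (-1.70), and Nkg7 (-0.93) followed. Nkg7 remained at 99.8 to 1415 CPM in CD4 cells against 513 to 3277. Ly6c2 (-2.76 ± 0.22) did not overlap between the classes, 0 to 656 against 938 to 2926 CPM, and Cd7 differed by -3.54. Of 12 cell cycle genes 7 were lower, with Mki67 at -0.99 ± 0.21 and medians of 92.7 and 181 CPM. Of 7 naive and memory genes Tcf7 (-1.65), Satb1 (-0.66) and the survival gene Bcl2 (-1.38) were lower and none higher. The metabolic genes Hif1a (adjusted p = 1.27e-09, higher in 21 of 21) and Hk2 (0.96) were the 2 called of 9 glycolysis and hypoxia genes.

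**Figure D5:**
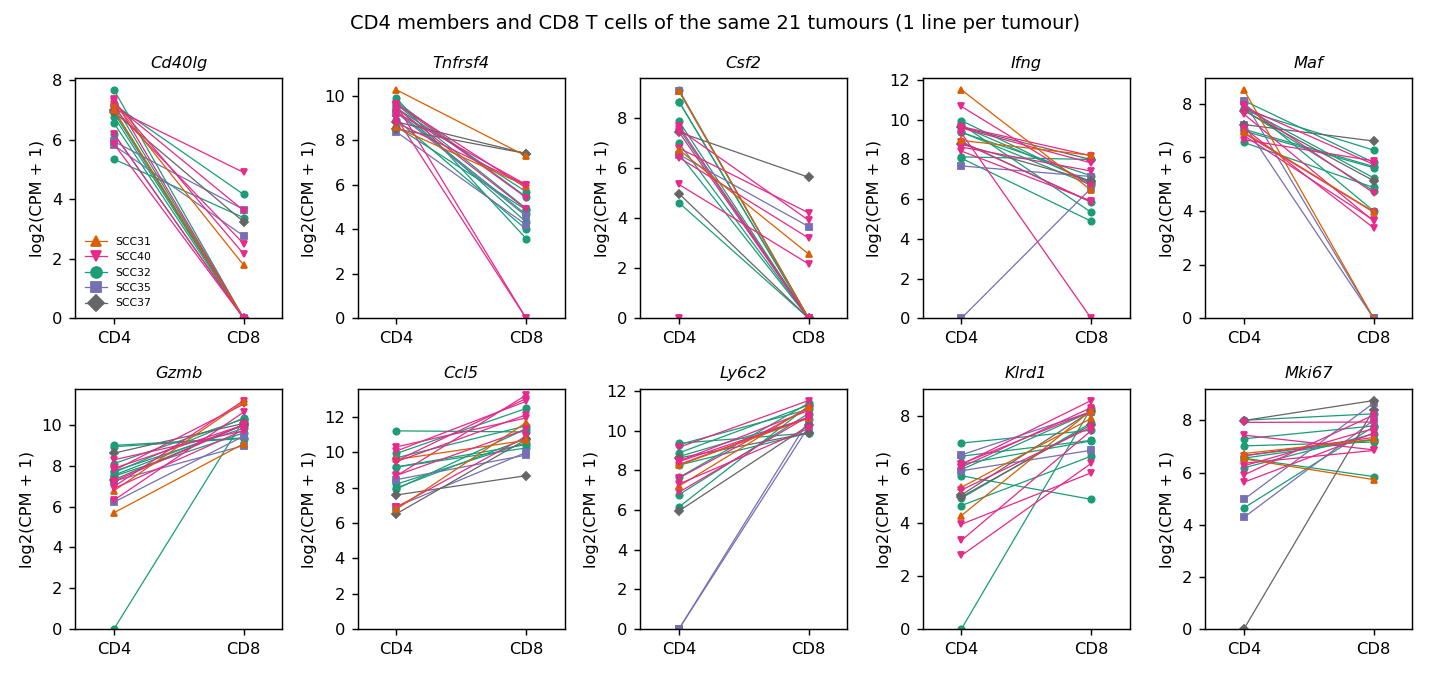
log2(CPM + 1) of 10 genes in conventional CD4 T cells and CD8 T cells of the same 21 tumours, with 1 line per tumour coloured by cell line. Cd40lg and Tnfrsf4 fall from CD4 to CD8 in 21 of 21 tumours and Gzmb and Ly6c2 rise in 21 of 21.

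Regulatory T cells could be compared in 2 tumours, both of SCC32 at day 10 (232 members, 29 regulatory cells). With 2 tumours, the p-values of this comparison say little about the spread between tumours. Of 2729 genes, 181 were called (6.63%), 103 higher (3.77%) and 78 lower (2.86%) in conventional cells, but DESeq2 called 18 and 7 were called without the cells Scrublet marked. Gzmb, Ikzf2 and Klrg1 kept their call under every alternative. Gzmb was 491 and 212 CPM in conventional cells against 1879 to 2372 in regulatory cells (-2.53 ± 0.24, adjusted p = 2.48e-21). Ikzf2, which encodes the regulatory T cell factor Helios, was 71.8 and 74.2 against 735 to 893 CPM (-3.35 ± 0.36). Klrg1 had 2 UMIs in conventional and 34 in regulatory cells, 90.5 times more per UMI there (23.2 to 778, counting error only). Cd40lg had 107 UMIs against 2, a ratio of 10.0 (2.71 to 84.1), and Tnfsf11, which encodes RANKL, 141 against 2, a ratio of 13.2 (3.60 to 110). Klrd1 had 66 UMIs against 0, at least 4.13-fold higher against a floor of 3 counts over the group. Ifng was 991 and 657 against 0 and 678 CPM (1.41 ± 0.30), and its call was lost under 6 alternatives. Tnfrsf4 (-1.06), Icos (-0.96), Il2ra (-2.33) and Ctla4 (-1.71) were lower in conventional cells, and Pdcd1 (2.67) and Cxcr6 (2.27) higher. The 2 follicular helper genes tested, Maf and Izumo1r, were lower in conventional cells, with a list median of -1.89.

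Variable segments of the T cell receptor beta chain were read where a member had UMIs of 1 Trbv gene. In SCC32 at day 10 Trbv19 led in both tumours, with 21 of 77 cells (27.3%, exact interval 17.7 to 38.6) and 19 of 53 (35.8%, 23.1 to 50.2), and it led in the SCC31 tumour of day 10 with 21 of 46 (45.7%, 30.9 to 61.0). In SCC40 at day 10 Trbv13-2 led in 2 tumours, with 27 of 68 (39.7%) and 19 of 37 (51.4%), and Trbv26 in the third, with 15 of 43 (34.9%). At day 16 Trbv5 led in 1 SCC40 tumour with 26 of 58 (44.8%) and Trbv26 in the other with 7 of 32 (21.9%). Trbv26 was the first or second segment in 7 of the 9 tumours with enough cells. These shares count segments, not clones, and alignment of reads to segments that resemble each other can move them.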

How the data were processed

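Tumour cells were hashtagged and sequenced with the 10x 5' kit, and the deposited matrices hold raw UMI counts per gene and barcode, for which the file headers name Cell Ranger 6.0.0 and the submitters' processing notes the build mm10. Cells needed at least 300 genes, at most 15% mitochondrial counts, and a leading hashtag of at least 10 counts and 2 times the next. The authors' deposited hashtag sheet gave line, outcome, day and mouse. UMIs of members were summed per tumour with at least 10 members. These sums were tested with edgeR 4.0.16 (R 4.3.3; TMM, quasi-likelihood, Benjamini-Hochberg at 0.05) over 24 tumours with line and day as terms, or with tumour as a block against CD8 or regulatory T cells. Shares were tested with exact permutation within lines (two-sided, scipy 1.17.1). Alternatives used DESeq2 1.42.0, Scrublet in scanpy 1.11.5, and other filters. Plots used log2(CPM + 1). Named genes were list genes that were called, the 5 largest called changes each way at a mean of at least 50 CPM, and a fixed core, of which some genes are not reported here. The members and gene lists were chosen with earlier results of these data known. Scripts were tested on simulated data. Nothing states that tumours of a group are separate experiments, so p-values measure the spread between these tumours. The comparison with regulatory T cells had 2 tumours, too few for its p-values to measure that spread.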

Additional observations from a re-analysis of the deposited data

Results flagged for a closer look

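The day course of 3 genes in the conventional CD4 T cells differed between lines by the line by day interaction of edgeR's quasi-likelihood test. Spp1, which encodes osteopontin, had an adjusted p of 0.0166. Its level was 54.6 CPM in the SCC31 tumour of day 6 and 2790 at day 10, and 15584 in the SCC35 tumour of day 16. A UMI of Spp1 was found in 90.2% of Ptprc-negative cells, against 43.2% of members. Hist1h2ap, a histone gene, had an adjusted p of 0.0166. It was lower at day 10 than at day 6 in SCC31 (301 against 1292 CPM) and in SCC40 (163 to 182 against 428 and 768), and higher in SCC32 (347 and 445 against 146 and 47.7). Zfp36, which encodes an mRNA-destabilising protein, had an adjusted p of 0.0259, with 72.8 and 245 CPM in SCC31 at days 6 and 10 and 479 and 984 against 243 to 332 in SCC40. None of the 3 kept its call under every alternative.

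Before tumour growth, at day 0, 8 of 2280 assigned SCC32 cells met the rule for conventional CD4 T cells (0.351%, exact 95% interval 0.152 to 0.690). In the other lines 0 of 4947 cells did, which allows a share of up to 0.0606%. The source of these 8 cells was not tested.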

How the results depend on the processing

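For the change from day 6 to day 10, 176 genes were called, against 32 with at least 20 cells per tumour, 27 with a hashtag ratio of 4 and 17 without cells over 10000 UMIs (an alternative chosen after seeing the data). Leaving out a tumour gave 42 to 219, with 42 without the first SCC40 tumour of day 6, 111 without the first SCC32 tumour of day 10, and 95 and 102 without the first and second SCC40 tumours of day 10. Ifng changed by 0.08 with at least 20 cells per tumour. For the late days, 6 genes became 10 with DESeq2, 64 without the low count filter, 2 with at least 20 cells, 1 with a hashtag ratio of 4, 0 with the stricter cell filter, 0 without cells Scrublet called, 0 without cells with other lineage UMIs, 17 without deep cells and 21 without the mix library, and 1 to 21 on leaving out a tumour. For SCC40, 268 became 438 without the filter, 99 with at least 5 cells, 416 without deep cells and 440 without the mix library, and 181 to 316 on leaving out a tumour. For SCC31, 64 became 106 with DESeq2, 4 with at least 5 cells, 0 with 1 Lyz2 UMI allowed, and 0 to 94 on leaving out a tumour, with 0 without its day 6 tumour. The interaction's 3 became 47 with DESeq2, 224 without the filter, 0 with at least 20 cells, 5 with the stricter filter, 1 without Scrublet cells, 1 with 1 Lyz2 UMI allowed, 6 without deep cells, 20 without the mix library, and 0 to 26 on leaving out a tumour. Against regulatory T cells, 181 became 18 with DESeq2, 118 with the stricter filter, 7 without Scrublet cells, 97 without other lineage UMIs, 117 with 1 Lyz2 UMI allowed, and 117 without deep cells. Against CD8 T cells the 415 stayed within 1.5 times under all 12 alternatives and 21 omissions. The cause of these differences was not tested.

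Whether tumour numbers 1 and 2 paired tumours was checked over 21 pairs of groups. Correlations of same-numbered deviations ran from -0.103 to 0.156, and 1 was over 0.1. All tumours numbered 3 were in the mix library, and those numbered 1 or 2 in the library of their line. The check left out number 3, so it cannot show a grouping by library. With the tumour number as a replicate block, in which number 3 stands for the mix library, SCC31 had 8 called genes and the interaction 47. Without the replicate block of tumour, the comparison with regulatory T cells had 92 called genes and that with CD8 T cells 392.

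The helper share of T cells gave -16.2 points for last against first day, -42.3 for last against day 10, and -24.5 to -11.9 on leaving out a tumour. The share of assigned cells gave 2.62, 1.37 without the mix library, 1.10 on log2 shares, -3.23 against day 10, and 1.38 to 3.85 on leaving out a tumour. The SCC31 comparison without the mix library, both line comparisons and the comparison with regulatory T cells at a minimum of 20 cells, and omissions from the 2 tumours with regulatory T cells could not be fitted. Depth limits rare transcripts: at a median of 2167 UMIs per cell, low genes such as Il2, Il21 and Gzmk were not tested between days or lines.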
